A study of Mus musculus with 8 samples.

Results

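The genes described here encode 2 ligand systems that act on brain vessels, the Wnt7 proteins and norrin, and the receptor parts that read them. The ligand genes were Wnt7a, Wnt7b and Ndp (norrin), and the receptor genes were Fzd4, Fzd6, Lrp5, Lrp6, Adgra2 (Gpr124), Reck and Tspan12. All 10 were named by probe sets of the array that carry that gene alone, 18 probe sets in all, and each gene was read from its brightest probe set, by the mean of all 8 arrays. They were 10 of 18193 genes so measured.

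Wnt7a and Wnt7b are secreted by neural progenitors and neurons and act on endothelial cells through Frizzled receptors with the co-receptors Lrp5 and Lrp6, which stabilises beta-catenin. Reck, a membrane-anchored protein, binds Wnt7, and the adhesion receptor Adgra2 carries the Reck-bound ligand to Frizzled, so that both are needed for vessels to enter and mature in the forebrain. Norrin is no Wnt protein, but it binds Fzd4 with high affinity and signals through the same co-receptors with the tetraspanin Tspan12, a route best known from the vessels of the retina and also used in the brain.

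RNA came from GFP-positive cells sorted from the cortex (4 arrays) or the lungs (4 arrays) of mouse embryos at E13.5, counted from a vaginal plug at day 0.5, with meninges and choroid plexus removed from the cortex. Both groups came from mice homozygous for a Tie2-GFP transgene (Jackson strain 003658) and had no other treatment, and the embryos of a litter (10 to 13) were pooled into 1 sample per tissue. The Tie2 promoter is active in endothelium and also in some blood cells, so the gate is not a pure endothelial one. In each tissue the arrays are numbered 72, 22, 19 and 18. The question is how vessels of the forming blood-brain barrier differ from those of a peripheral organ of the same age.

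Values are deposited log2 expression values, and a difference of 1 means 2-fold. Tissue was taken from the titles, since the description of 4 arrays (both numbered 19 and both numbered 18) names the other tissue. All 15 endothelial markers examined had means above 6 in both tissues, where array medians lay between 6.59 and 6.72, but their mean was 9.53 to 11.37 on the cortex arrays and 11.47 to 12.01 on the lung arrays. All 8 neuron and all 9 radial glia markers had a call towards cortex, beside 10.4% of all genes. The means of these 2 marker lists were 11.17 to 11.75 and 10.51 to 11.22 in cortex, against 6.06 to 6.44 and 6.49 to 6.88 in lung. Brightest among the endothelial markers were Cldn5 and Kdr in cortex and Tie1 and Tek in lung, and among the neural ones Stmn2, Tubb3, Fabp7 and Gli3 in cortex. Of these neural genes, Stmn2 (11.73) and Gli3 (10.32) were bright in lung too, and Tubb3 (5.47) and Fabp7 (5.35) were low there. Mesenchyme markers averaged 7.43 to 9.65 in lung and 5.99 to 6.58 in cortex, macrophage markers 4.87 to 6.27 in lung and 5.81 to 8.82 in cortex. Choroid plexus markers averaged 5.48 to 5.86 in lung and 6.72 to 8.47 in cortex, although that tissue was removed by the protocol. In such bulk samples, fewer cells of a type and less RNA per cell cannot be told apart.

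Promoter windows of RefSeq (GRCm38.p6, the 250 bases before the start) were found for 5 of the 10 genes, Wnt7a, Ndp, Fzd4, Reck and Tspan12. They are shown for the gene with the largest difference towards cortex (Wnt7a, chr6:91411354-91411603, minus strand), the one with the largest towards lung (Fzd4, chr7:89404116-89404365, plus strand) and one without a call (Ndp, chrX:16911775-16912024, minus strand), each 5′ to 3′ in the direction of the gene. Capitals mark matches on either strand to the GC box GGGCGG or the E-box CAGCTG.
Wnt7a: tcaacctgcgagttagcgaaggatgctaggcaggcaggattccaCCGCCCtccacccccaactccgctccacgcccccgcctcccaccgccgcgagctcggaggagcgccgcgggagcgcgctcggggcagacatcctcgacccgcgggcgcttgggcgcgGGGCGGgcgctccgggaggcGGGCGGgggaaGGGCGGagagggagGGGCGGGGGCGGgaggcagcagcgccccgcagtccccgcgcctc
Fzd4: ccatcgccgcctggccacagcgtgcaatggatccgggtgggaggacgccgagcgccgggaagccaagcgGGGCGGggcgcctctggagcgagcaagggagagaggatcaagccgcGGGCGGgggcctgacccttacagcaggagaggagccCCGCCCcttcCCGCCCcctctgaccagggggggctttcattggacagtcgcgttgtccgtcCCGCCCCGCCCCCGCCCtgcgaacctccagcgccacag
Ndp: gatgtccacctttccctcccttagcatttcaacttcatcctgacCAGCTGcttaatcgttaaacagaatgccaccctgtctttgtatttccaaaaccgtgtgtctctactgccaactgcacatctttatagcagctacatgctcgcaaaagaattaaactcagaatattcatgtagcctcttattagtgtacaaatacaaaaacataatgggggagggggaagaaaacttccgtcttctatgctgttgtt

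The Wnt7a and Fzd4 windows, of genes that differed in opposite directions, were alike in composition, with 77.6% and 72.8% G or C and 34 and 25 CpG dinucleotides. The Reck window had 68.4% and 19 CpG. Those of Ndp and Tspan12 had 41.2% and 42.0%, with 4 and 5 CpG, against medians of 52.4% and 6 over all 32851 windows. The Tspan12 window lies at a start inside the gene's outermost bounds. GC boxes matched 6 times in Wnt7a, 7 times in Fzd4 (a pair sharing a base) and 2 times in Reck, and 32.7% of all windows held one. E-boxes matched 1 time each in Ndp and Reck, and 13.0% of all windows held one. The TCF/LEF core CTTTGAT, held by 3.21% of all windows, and the ETS core CCGGAAG, held by 6.91%, had 0 matches in the 5 windows, which says only that these letters are not there.

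The ligand genes Wnt7a and Wnt7b were higher in cells sorted from cortex, 11.3-fold and 5.50-fold, while Ndp was low in both tissues and did not pass the test. Of the receptor genes, Fzd4, Adgra2, Reck and Lrp5 were lower in cortex, by 4.42-fold to 2.21-fold, and Fzd6, Lrp6 and Tspan12 did not pass. So 2 of 3 ligands were called higher in cortex, where 10.4% of all genes were, and 4 of 7 receptors were called higher in lung, where 7.71% of all genes were (limma, adjusted p under 0.05). For these same 6 genes no cortex array reached into the lung range, against 12.5% of all genes without overlap towards cortex and 12.0% towards lung. The median difference, cortex minus lung, was 2.46 over the ligands and -1.14 over the receptors, beside -0.09 over all genes.

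**Figure D1:**
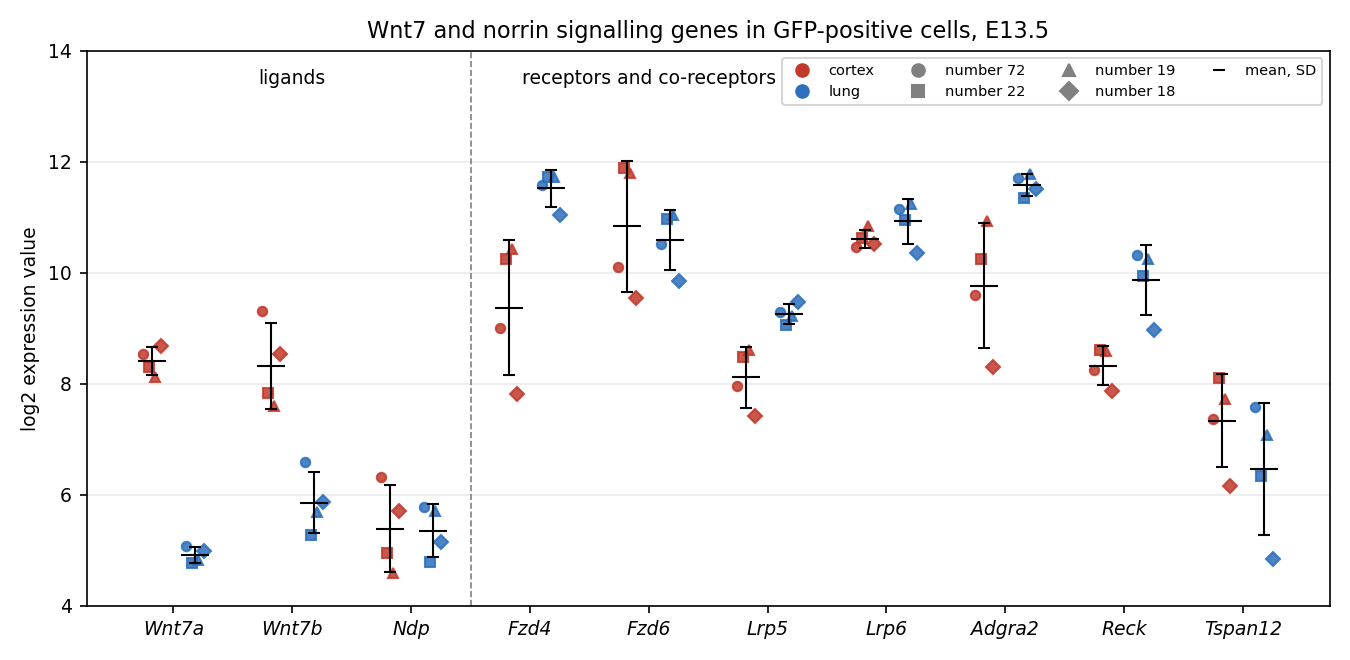
Log2 expression value (y axis) of the 3 ligand and 7 receptor genes (x axis) on each of the 4 cortex (red) and 4 lung (blue) arrays, with marker shape for the sample number and black bars for the mean and SD. Wnt7a and Wnt7b lie higher in cortex and Fzd4, Lrp5, Adgra2 and Reck higher in lung without overlap, and the cortex arrays numbered 72 and 18 lie below those numbered 22 and 19 for every receptor.

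Wnt7a stood at 8.54, 8.31, 8.12 and 8.67 on the cortex arrays (numbers 72, 22, 19 and 18, an order kept throughout) and at 5.07, 4.77, 4.82 and 4.99 on the lung arrays. Each cortex value lay far above each lung value, and arrays of a tissue lay within 0.55 and 0.30 of each other. The difference was 3.49 (95% confidence interval 3.13 to 3.86, limma adjusted p = 4.37e-06). The lung values lay below the array medians, and the files carry no detection call, so the fold may be a lower bound.

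Wnt7b stood at 9.31, 7.83, 7.60 and 8.53 in cortex and at 6.58, 5.28, 5.70 and 5.87 in lung. Its spread was wider than that of Wnt7a, with number 72 highest in both tissues. The difference was 2.46 (1.52 to 3.40, adjusted p = 0.00377). Wnt7b is also a known product of the lung epithelium, whose markers averaged 6.89 to 8.21 on the lung arrays and 6.56 to 7.57 on the cortex arrays, with the highest lung mean on number 72. Lung 72 was also highest in the mesenchyme, mural, macrophage, neuron and erythroid marker means. The lung epithelium mean joins genes that went opposite ways. Of its 10 genes, Krt18 (15.4-fold), Krt19 and Krt8 were called towards lung, Sox9 (7.38-fold) towards cortex, and 6 were not called. Of all genes, 7.71% were called towards lung and 10.4% towards cortex.

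Ndp stood at 6.33, 4.94, 4.58 and 5.70 in cortex and at 5.79, 4.78, 5.70 and 5.14 in lung. The arrays overlapped fully, with means of 5.39 ± 0.78 and 5.35 ± 0.47 (SD, n = 4 each). The difference was 0.04 with an interval of -0.87 to 0.94 (adjusted p = 0.962), an upper bound of 1.92-fold higher in cortex, and the sign of the mean difference turned with the scaling of the arrays.

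Within the cortex the ligands and receptors followed opposite orders. On the arrays numbered 72 and 18, which had the lower endothelial marker means (9.98 and 9.53, against 11.24 and 11.37) and the higher neuron and radial glia means, Wnt7a, Wnt7b and Ndp were all higher than on numbers 22 and 19. That order was held by 3 of 3 ligands and by 28.7% of all genes. The reverse order, with numbers 22 and 19 both above 72 and 18, was held by 7 of 7 receptors and by 17.0% of all genes. The part of the neural transcripts in the Wnt7a and Wnt7b values was not tested.

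**Figure D2:**
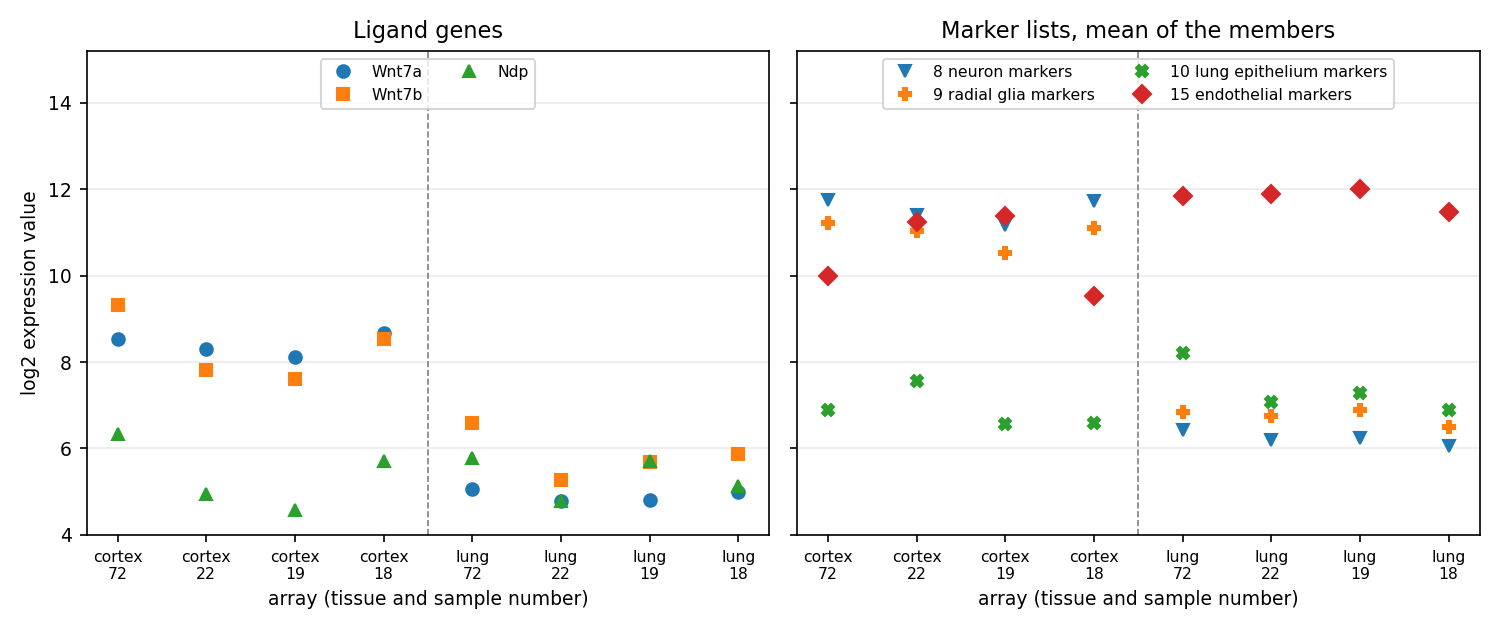
Left, log2 expression value (y axis) of Wnt7a, Wnt7b and Ndp on each array (x axis, tissue and sample number); right, the mean of 8 neuron, 9 radial glia, 10 lung epithelium and 15 endothelial markers on the same arrays. Wnt7a and Wnt7b are highest on the 4 cortex arrays, where neuron and radial glia means lie between 10.51 and 11.75, and the endothelial mean is lowest on cortex 72 and 18.

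Fzd4, the receptor of norrin and a receptor of Wnt7, stood at 9.002, 10.24, 10.43 and 7.82 in cortex and at 11.59, 11.73, 11.72 and 11.03 in lung. Every cortex array was below every lung array, and the cortex arrays spanned 2.61 log2 units against 0.69 in lung. The difference was -2.14 (-3.37 to -0.92, adjusted p = 0.0256). Fzd6, a Frizzled also tied to planar polarity, stood at 10.10, 11.89, 11.79 and 9.55 in cortex and at 10.51, 10.97, 11.03 and 9.86 in lung. The cortex values lay on both sides of the lung values, and the difference was 0.24 (-1.03 to 1.51, adjusted p = 0.792).

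The Frizzled genes therefore changed unequally. Fzd4 minus Fzd6 on the same array was -1.46 ± 0.29 in cortex and 0.92 ± 0.24 in lung (SD, n = 4 each), with no overlap between tissues. The difference of these differences was -2.39 (exact permutation test, two-sided, p = 0.0286, the smallest that 4 against 4 arrays can give, adjusted p = 0.0476 over 5 pairs). In this quantity the cortex arrays, which ranged over more than 2 log2 units in each gene alone, lay within -1.73 and -1.10.

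Lrp5, a co-receptor for Wnt and norrin, stood at 7.95, 8.48, 8.61 and 7.41 in cortex and at 9.29, 9.05, 9.22 and 9.47 in lung, lower in every cortex array. The difference was -1.14 (-1.74 to -0.54, adjusted p = 0.018). Its relative Lrp6 stood at 10.46, 10.62, 10.83 and 10.51 in cortex and at 11.15, 10.96, 11.25 and 10.35 in lung. These overlapped, with lung 18 lowest of all, and the difference was -0.32 (-0.80 to 0.16, adjusted p = 0.339). Lrp5 minus Lrp6 was lower in cortex, at -2.49 ± 0.44 against -1.67 ± 0.53 (n = 4 each, exact permutation p = 0.0286, adjusted p = 0.0476). The difference between tissues was -0.82, from -0.94 without lung 19 to -0.56 without lung 18. On the 4 arrays whose description and title name the same tissue it was -0.44.

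Adgra2 stood at 9.60, 10.24, 10.93 and 8.30 in cortex and at 11.70, 11.34, 11.78 and 11.50 in lung. The lung arrays lay within 0.43 of each other and all above the cortex arrays, and the difference was -1.81 (-2.93 to -0.70, adjusted p = 0.0342). Its partner Reck, also an inhibitor of matrix metalloproteinases, stood at 8.25, 8.61, 8.59 and 7.87 in cortex and at 10.33, 9.95, 10.25 and 8.96 in lung, again without overlap. Its difference was -1.54 (-2.27 to -0.82, adjusted p = 0.0109). For the pair no unequal change was detected, with Adgra2 minus Reck at 1.44 ± 0.79 in cortex and 1.71 ± 0.56 in lung (n = 4 each, exact permutation p = 0.629, adjusted p = 0.629). The sign of this difference was set by single arrays, at 0.065 without cortex 18 and 0.0053 without lung 18. Lung 18, lowest of the lung arrays in Reck, was also lowest in the endothelial, mural, mesenchyme, macrophage, lung epithelium, neuron and radial glia marker means.

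Tspan12 stood at 7.36, 8.10, 7.72 and 6.15 in cortex and at 7.58, 6.33, 7.08 and 4.84 in lung. The tissues overlapped, lung spanned 2.74 log2 units, and the difference was 0.87 (-0.54 to 2.29, adjusted p = 0.374), from 0.33 without lung 18 to 1.27 without cortex 18. Set against the other norrin receptor part on the same array, Fzd4 minus Tspan12 was 2.04 ± 0.50 in cortex and 5.06 ± 0.94 in lung without overlap (n = 4 each, exact permutation p = 0.0286, adjusted p = 0.0476). The order of the lung arrays in Tspan12 (number 72 highest, then 19, 22 and 18) was found widely. The mesenchyme, mural, macrophage, lung epithelium and neuron marker means had it. So had the mean of the other Frizzled genes, and those of the Wnt secretion, receptor turnover, inhibitor, relay and target genes. The upper quartiles of the lung arrays fell in the same order (9.05, 8.71, 8.98 and 8.68 for numbers 72, 22, 19 and 18). How many of all genes held that order was not counted. For Wnt7a minus Wnt7b, the remaining pair, the values were 0.09 ± 0.61 in cortex and -0.94 ± 0.42 in lung, which did not pass (n = 4 each, exact permutation p = 0.0571, adjusted p = 0.0714).

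The calls of the ligands held when any 1 array was left out, and so did that of Reck (-1.84 to -1.39). Reck lost its call in the limma fit without both arrays numbered 72 (adjusted p = 0.0731), 22 (0.0527) or 19 (0.0562), at -1.61 to -1.37. The call of Fzd4 ended without cortex 72 (adjusted p = 0.0725) and also without lung 72 (0.0527), 22 (0.0647) or 19 (0.0672), at -2.12 to -2.02. That of Adgra2 ended without cortex 72 (0.0859) or any 1 of lung 72, 22, 19 and 18 (0.0631 to 0.0838), at -1.89 to -1.75, and that of Lrp5 without cortex 72 (-1.09, adjusted p = 0.0546). Receptors called higher in lung then numbered 1 without cortex 72 and 2 without lung 72, 22 or 19. With the 4 arrays left whose description and title name the same tissue, Wnt7a alone was called (3.498, adjusted p = 0.0116). There Wnt7b was at 2.64, Fzd4 -2.04, Lrp5 -0.96, Adgra2 -1.60 and Reck -1.71, without a call.

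Several genes had further probe sets. The second Fzd4 probe set gave -2.24 (adjusted p = 0.0315 over all probe sets) and the third, near the low end, -1.07 without a call. Those of Fzd6 gave 0.06 and -0.14, and that of Lrp6 -0.34, none called. For Wnt7a and Wnt7b the call rested on 1 probe set each. The other 2 of Wnt7a averaged 3.39 to 3.83 in both tissues, with differences of -0.05 and -0.12, and the other of Wnt7b averaged 5.44 and 5.19, with a difference of 0.25. With the mean of all its probe sets, Wnt7a differed by 1.11 (adjusted p = 0.000207) and Wnt7b by 1.35 (adjusted p = 0.0103), both still called. Of the 18 probe sets, 2 had a call towards cortex and 5 towards lung, beside 7.28% and 4.88% of all probe sets. Ndp, Lrp5, Adgra2, Reck and Tspan12 had 1 probe set each.

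Read against the endothelial markers of the same array, the receptors separated. Fzd4 minus the endothelial mean was -0.98, -0.997, -0.94 and -1.71 in cortex and -0.26, -0.17, -0.29 and -0.44 in lung, still lower in every cortex array. Fzd6 was 0.12, 0.66, 0.42 and 0.02 in cortex and -1.34, -0.92, -0.98 and -1.62 in lung, higher in every cortex array. Tspan12, at -3.65 to -2.62 in cortex and -6.63 to -4.27 in lung, and Lrp6, at -0.61 to 0.99 and -1.12 to -0.70, were also higher there without overlap. Lrp5 (-2.76 to -2.03 and -2.84 to -2.01), Adgra2 (-1.23 to -0.38 and -0.55 to 0.03) and Reck (-2.79 to -1.66 and -2.51 to -1.52) overlapped.

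This scaling adds the same amount to the difference of every gene. The median gene lay 1.19 higher in cortex after it, and 36.5% of all genes were higher in cortex without overlap and 1.05% higher in lung. Among the 10 genes these were 5 (Wnt7a, Wnt7b, Fzd6, Lrp6 and Tspan12) and 1 (Fzd4). In the limma fit of the shifted arrays, Fzd6 was called at 1.52 (adjusted p = 0.0288) and Tspan12 at 2.15 (adjusted p = 0.00151), with Wnt7a and Wnt7b, and 0 of the 10 genes was called higher in lung, where 36.1% and 0.803% of all genes were called. That fit gave every gene the same standard error, 0.572, so its calls are in effect a limit on the fold. Against that median, Fzd6 (1.52) lay above and Lrp6 (0.96) below, and Fzd4 (-0.87), Adgra2 (-0.54), Reck (-0.27) and Lrp5 (0.13) lay further below.

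**Figure D3:**
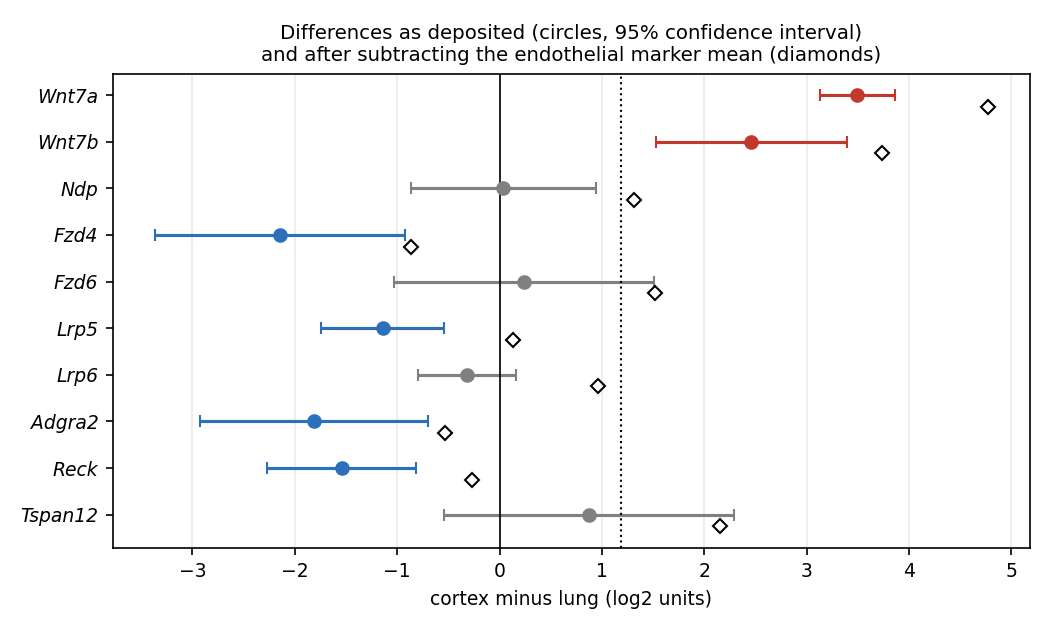
Cortex minus lung in log2 units (x axis) for each of the 10 genes (y axis), as deposited (circles with the 95% confidence interval, red called higher in cortex, blue called higher in lung, grey not called) and after subtracting each array's endothelial marker mean (diamonds). The solid line is 0 and the dotted line the median of all genes after subtraction, 1.19, to the left of which the diamonds of Fzd4, Lrp5, Lrp6, Adgra2 and Reck lie.

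Subtracting the endothelial mean also narrowed the spread of some receptors over the cortex arrays. The SD fell from 1.22 to 0.37 for Fzd4, from 1.19 to 0.29 for Fzd6, from 1.12 to 0.42 for Adgra2, from 0.84 to 0.44 for Tspan12 and from 0.55 to 0.40 for Lrp5. For Reck it went from 0.35 to 0.59 and for Lrp6 from 0.17 to 0.78, which is wider. The SD became smaller for 5 of 7 receptors, 0 of 3 ligands and 6.78% of all genes. Over the lung arrays it became smaller for 5 of 7 receptors, 1 of 3 ligands and 31.9% of all genes. There Lrp6 and Reck narrowed, and Lrp5 (0.17 to 0.38) and Adgra2 (0.19 to 0.24) widened.

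**Figure D4:**
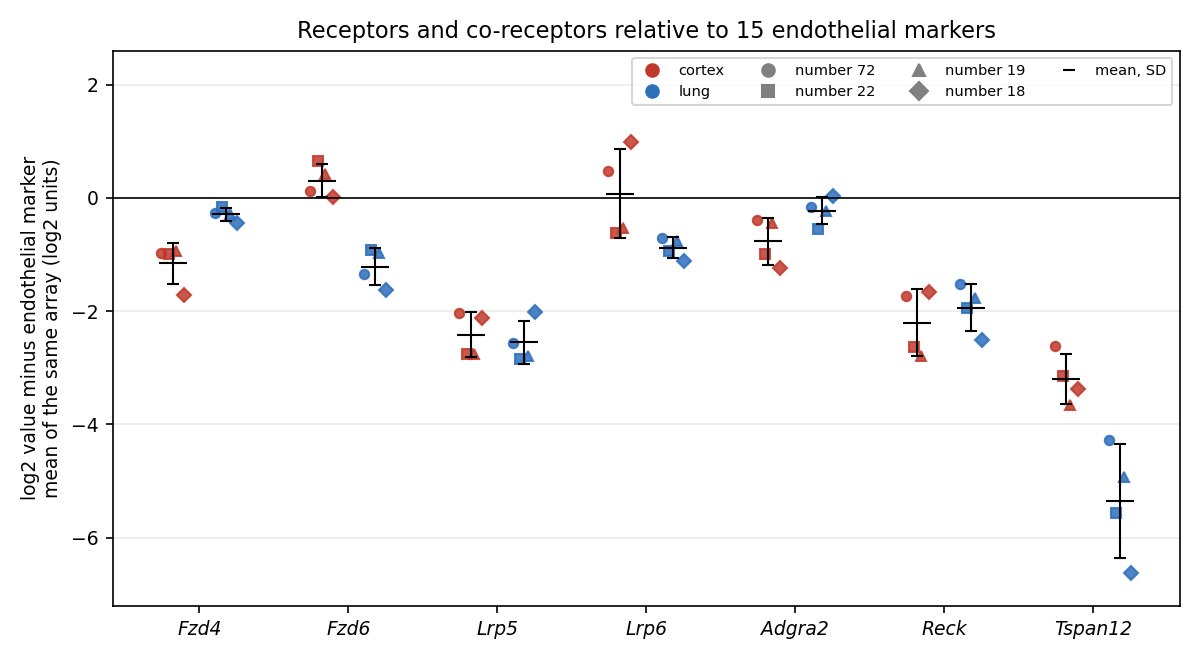
Log2 value of each receptor gene minus the mean of 15 endothelial markers on the same array (y axis, log2 units) for 4 cortex (red) and 4 lung (blue) arrays, with marker shape for the sample number and black bars for the mean and SD. Fzd4 stays lower in cortex, Fzd6, Lrp6 and Tspan12 lie higher in cortex, and Lrp5, Adgra2 and Reck overlap.

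For the 6 called genes, the 3 genes with the most alike pattern were found by the root mean square difference over the 8 arrays after centring each gene. Wnt7a lay closest to Ctnnd2 (0.15), Sh3rf3 (0.15) and Snap25 (0.16), and Wnt7b to Tvp23a (0.14), Vps37d (0.19) and Sarm1 (0.20). Fzd4 lay closest to Icam2 (0.17), Ehd4 (0.20) and Thbd (0.22), and Adgra2 to Gimap9 (0.16), Ctla2a (0.17) and Vamp8 (0.18). The nearest to Lrp5 were Pxn (0.087), Plscr3 (0.089) and Ltbr (0.099), and to Reck Fn1 (0.18), Btbd3 (0.20) and Nceh1 (0.20).

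Among the other Frizzled genes, Fzd3 and Fzd2 of 8 showed a call towards cortex and 0 a call towards lung, with a list median of 0.80. Of all genes, 10.4% had a call towards cortex and 7.71% towards lung. Fzd3, known for axon guidance, stood at 9.85 ± 0.46 in cortex and 7.04 ± 0.47 in lung (7.01-fold, adjusted p = 0.000308), and Fzd2 at 11.39 ± 0.41 and 9.20 ± 0.95 (4.55-fold, adjusted p = 0.0105). Fzd1 (1.09), Fzd8 (1.08), Fzd9 (0.53), Fzd7 (-0.19), Fzd5 (-0.29) and Fzd10 (-0.86) did not pass. Fzd4 was the 1 Frizzled gene of 10 called higher in lung, joined by Fzd10 (adjusted p = 0.038) with the sample number as a block. The count towards cortex was 4 without lung 72, and 5 when arrays were shifted to the same endothelial mean, a shift under which 36.1% of all genes were called that way.

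Of 17 other Wnt ligands, 5 had a call towards lung (Wnt2, Wnt4, Wnt9b, Wnt11 and Wnt16) and 0 towards cortex, with a median of -0.20. The shares of all genes so called were 7.71% and 10.4%. Wnt2, a mesenchymal Wnt of the lung, stood at 6.55 ± 1.46 in lung and 4.07 ± 0.07 in cortex, a 5.57-fold difference (adjusted p = 0.0254), and Wnt9b differed 3.38-fold (adjusted p = 0.00145). The cortex level of Wnt2 lay near the low end of the scale, so its fold may be a lower bound. The call of Wnt2 ended without any 1 of cortex 72, 22, 19 and 18 or without lung 19, at -2.53 to -2.46. After the endothelial scaling 3 of 17 had calls towards cortex, where 36.1% of all genes did, and 0 towards lung. The Wnt-loading enzyme Porcn rose 2.73-fold in cortex (adjusted p = 0.00699). Wls, which carries Wnt proteins to the cell surface, was higher in lung by 2.70-fold (adjusted p = 0.0444), a call that ended without any 1 array other than cortex 22 and lung 18 (-1.54 to -1.21).

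R-spondins, which keep Frizzled at the membrane, and genes of receptor turnover gave 1 call of 9 towards cortex, Rspo3 (7.72-fold, adjusted p = 0.00514), and 2 towards lung, Lgr4 and Lgr6, the latter 2.5-fold (adjusted p = 0.00418), beside 10.4% and 7.71% of all genes. The cortex order of Rspo3 (number 19 highest, then 72, 22 and 18) was also that of the choroid plexus, mural and macrophage marker means. How many of all genes held that order was not counted. The source of Rspo3 was not tested. Lgr4 lost its call, leaving 1 towards lung, when cortex 22, cortex 19, lung 72 or lung 19 was left out. Of 14 inhibitors outside or at the surface of the cell, Apcdd1 and Sfrp1 had calls towards cortex (2) and Dkk2, Sost and Wif1 towards lung (3). The shares of all genes were again 10.4% and 7.71%. Apcdd1, a membrane inhibitor and Wnt target, differed 8.11-fold (adjusted p = 0.000366), and the Lrp-binding inhibitor Dkk2 differed 7.27-fold (adjusted p = 0.00214). The call of Wif1 ended with the sample number as a block (adjusted p = 0.0586), where Sfrp4 gained one towards cortex (0.0319). It also ended without any 1 array other than cortex 72 and lung 19.

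Of 16 genes of the intracellular relay, 3 (Apc, Bcl9 and Dvl1) had calls towards cortex and 0 towards lung. For this list and the next, the shares of all genes called were 10.4% towards cortex and 7.71% towards lung. Apc, a scaffold of beta-catenin destruction, was at 3.65-fold (adjusted p = 0.00106) and the beta-catenin cofactor Bcl9 at 1.75-fold (adjusted p = 0.0392). Apc alone kept its call without cortex 22, cortex 18, lung 22 or lung 19, with arrays centred on their medians, and with the sample number as a block. Of 12 known targets in brain vessels, 5 (Apcdd1, Tnfrsf19, Foxq1, Nkd1 and Slc2a1) had calls towards cortex and 1 (Ccnd1) towards lung, with a median of 1.002. Apcdd1 was also counted among the inhibitors. Tnfrsf19, a receptor of the TNF family, differed 7.52-fold (adjusted p = 0.0381), a call that ended without any 1 array other than lung 72 and lung 18 (2.62 to 3.20). Ccnd1 lost its call without cortex 18, cortex 22 or lung 19. Neural progenitors also use several of these targets, and their markers were higher in cortex.

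Neither Adgra1 nor Adgra3, relatives of Adgra2, passed, with the larger difference in Adgra1 (0.26, adjusted p = 0.859). Of 4 proteases that Reck is known to restrain, Mmp2 stood at 12.19 ± 0.14 in lung and 8.20 ± 0.70 in cortex (15.9-fold, adjusted p = 6.48e-05). Mmp14 was also called higher in lung, and Mmp9 differed 5.25-fold towards cortex (adjusted p = 0.000145). Calls towards lung were held by 7.71% of all genes and towards cortex by 10.4%. The call of Mmp14 ended without cortex 72, cortex 18, lung 22, lung 19 or lung 18, leaving 1 call towards lung.

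**Figure D5:**
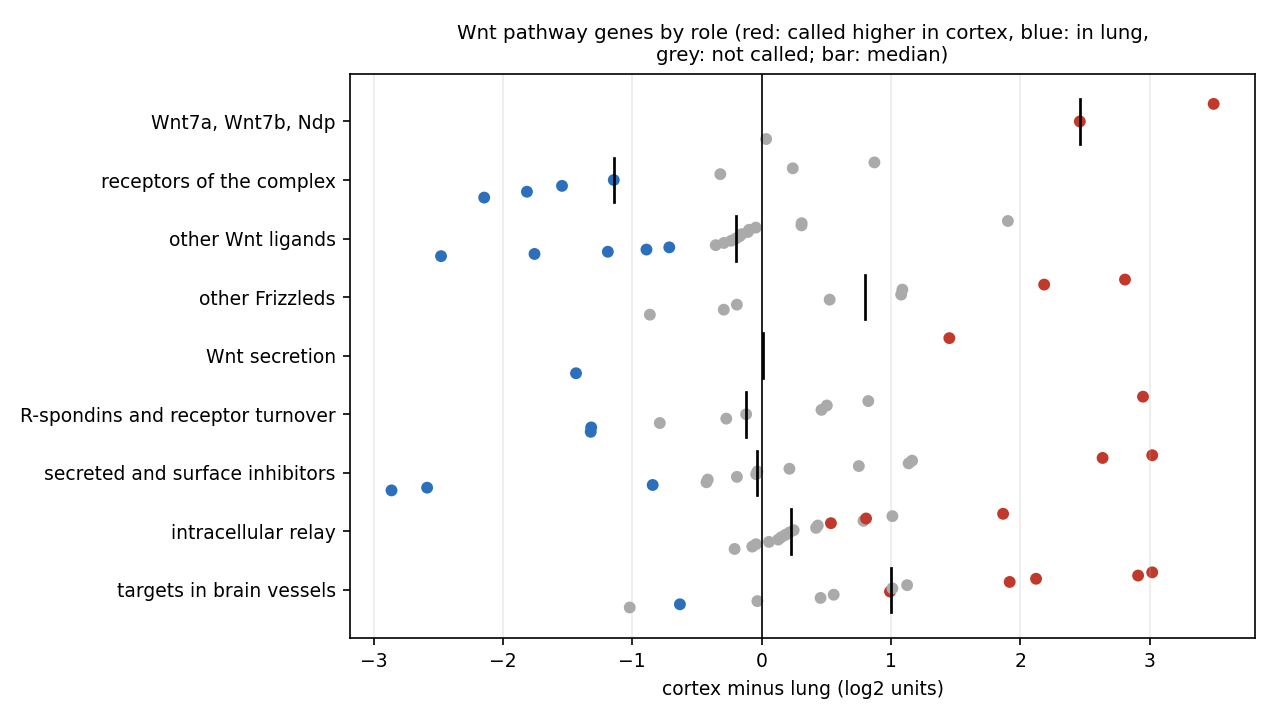
Cortex minus lung in log2 units (x axis) for genes of the Wnt pathway grouped by role (y axis), 1 point per gene, red called higher in cortex, blue called higher in lung, grey not called, with a bar at each list's median. Wnt7a lies furthest right (3.49) and Dkk2 furthest left (-2.86), and the receptors of the complex have the lowest median, -1.14.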

How the data were processed

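RNA of sorted cells was amplified with NuGEN Ovation V2 and put on Affymetrix whole-genome mouse arrays, per the labels' protocols. The authors deposited log2 values per probe set, made with RMA and the affy package per the submitters' processing notes, with versions not given in the sources used here. RMA normalizes arrays to each other, so every difference is relative to the rest of the array. Precision is limited by having 4 arrays a tissue, each a pooled litter per the series' design text.

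Of 45037 probe sets other than controls, 34945 named 1 gene in the platform annotation, 932 several and 9160 none. The gene of each was represented by its brightest probe set (18193 genes). The tissue comparison used limma 3.58.1 under R 4.3.3 (lmFit, eBayes, tissue as the factor), two-sided, Benjamini-Hochberg adjusted over all genes or probe sets, and called at 0.05. Pairs of genes were compared by exact permutation of per-array differences. The fit was tested on simulated data.

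The genes and lists were chosen with earlier results of these data known. The named genes were all members, all other Frizzled genes, the 2 called genes with the largest difference in each further pathway list (or the largest if none was called), the 2 brightest of each marker list (given for the endothelial and neural lists) and the 3 nearest genes by pattern of each called member. Other genes named beside a count of calls were added after their values were seen. Krm1, Krm2 and Tcf7 were not analysed here. All 8 columns were used. Alternatives were the sample number as a block, other scalings, array weights, a filter on dim genes (mean under 6), the mean of all probe sets, a trended fit and leaving out arrays; quantile normalization of the deposited values was added after the data were seen.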

Additional observations from a re-analysis of the deposited data

Results flagged for a closer look

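Each of 34 measures (the genes, their distance to the endothelial mean, the pairs and the marker lists) was examined in both tissues, 68 groups of 4 arrays, for a single array far from the other 3. Chance gives about 1 such flag in 20 groups, and there were 4. Fzd4 minus the endothelial marker mean was -1.71 on cortex 18, against -0.997 to -0.94 on the other cortex arrays. Lrp5 minus Lrp6 was -0.89 on lung 18, against -2.03 to -1.86. Adgra2 minus Reck was 2.54 on lung 18, against 1.37 to 1.53. The macrophage marker mean was 5.81 on cortex 18, against 8.31 to 8.82. All of these lie on arrays numbered 18, among those whose description and title name different tissues. On those arrays the neuron marker mean followed the title, at 11.17 and 11.72 on cortex 19 and 18 and 6.24 and 6.06 on lung 19 and 18. Without both arrays numbered 18, Lrp5 (-0.84, adjusted p = 0.051) and Adgra2 (-1.35, adjusted p = 0.0505) were not called, and Wnt7a, Wnt7b, Fzd4 and Reck were. What sets these arrays apart was not tested.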

How the results depend on the processing

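Wnt7a, Wnt7b, Fzd4, Lrp5, Adgra2 and Reck kept direction and call with arrays centred on medians, quality weights, the dim filter, the mean of all probe sets, the trended fit and quantile normalization. With the sample number as a replicate block the counts stayed at 2 members towards cortex and 4 towards lung (Lrp5 at adjusted p = 0.0498). The labels do not say that a number marks a litter. After each gene's mean within the tissue was subtracted, same-numbered arrays correlated at 0.33, -0.16, 0.0089 and 0.31 (numbers 72, 22, 19 and 18). The undivided array values correlated at 0.88 to 0.94 between tissues. After the shift to one endothelial mean the counts were 4 and 0, and Lrp5 (0.13) and Lrp6 (0.96) changed sign; the shift adds the same amount to every gene, and both lay below the shifted median gene (1.19). The count towards lung ranged from 1 to 4 when 1 array was left out, and was 0, 1 and 2 without both arrays numbered 72, 22 and 18. With 2 against 2 arrays of matching labels, the counts were 1 and 0. Ndp turned towards lung with centring (-0.041), with weights (-0.31) and without both arrays numbered 72 (-0.13), 22 (-0.0064) or 18 (-0.14). Leaving out 1 array gave -0.28 to 0.30 for Ndp and -0.11 to 0.67 for Fzd6. With the mean of all probe sets, Wnt7a minus Wnt7b was -0.25 and Fzd4 minus Fzd6 -1.87. Lrp6 was called with weights (-0.52, adjusted p = 0.0397). The causes were not tested. Array values carry no detection call, so low values such as Ndp are open to background signal.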
